A study of Mus musculus with 8 samples.

Results

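The ADAM and MMP metalloproteases described here are 10 genes of the mouse peritoneal macrophage, Adam8, Adam9, Adam10, Adam15, Adam17, Adam19, Mmp9, Mmp12, Mmp13 and Mmp14. They were taken by name, and each was read from its brightest array probe. They stand among 20887 named genes on the array, and all 10 entered the tests with 36927 genes and transcripts in total. Peritoneal macrophages of LysMCre-fur(fl/fl) mice (FURIN KO) and of littermate wild type (WT) mice, both on the C57BL/6 background, were left unstimulated or were given lipopolysaccharide (LPS of E. coli, at 1 μg/ml) for 1, 4 or 24 h. Each array received RNA of both genotypes from a single time, in 2 dyes, with 2 arrays per time and the dyes exchanged between them, so that the 8 arrays gave 2 values for each genotype at each time. Replicate 1 had the KO RNA in Cy5 and replicate 2 had it in Cy3. The labels call the replicates biological, but do not tie them to single mice or pools, and the p-values measure the spread between these arrays. The age of the mice was not given for the arrays.

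Cre is driven from the Lyz2 (LysM) locus in this model, so recombination is limited to myeloid cells, and the floxed Furin gene stays intact in any other cell of the culture. The peritoneal cells had been cultured and the nonadherent cells washed away before LPS was given. An array reports RNA of the whole culture, in which fewer cells of a type and less RNA per cell cannot be told apart.

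ADAM proteases are membrane-anchored enzymes that cut the outer part of other membrane proteins loose, a step called shedding. ADAM17, also known as TACE, releases TNF from its membrane-bound precursor, and ADAM10 sheds Notch receptors and the chemokine CXCL16. MMPs degrade the extracellular matrix and trim cytokines, and macrophages are a main source of several of them in inflamed tissue. Both families are made with an inhibitory prodomain. In most ADAMs and in the membrane-type MMPs it ends at a basic site that FURIN and other proprotein convertases cut, whereas most secreted MMPs are activated by other proteases, plasmin among them. This cleavage acts on the protein, and the arrays measured RNA alone.

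The promoters of 4 members are shown because Mmp13 and Mmp14 were the pair that rose at both 4 and 24 h of LPS, while Adam10 and Adam15 fell in both genotypes at both times. Each line holds the 250 bases before the RefSeq start of the gene (GRCm38.p6), 5′ to 3′ on the strand of the gene, with motif matches in capitals. Mmp13 lies at chr9:7272264-7272513 on the plus strand, Mmp14 at chr14:54431348-54431597 on the plus strand, Adam10 at chr9:70678732-70678981 on the plus strand and Adam15 at chr3:89350029-89350278 on the minus strand.
Mmp13: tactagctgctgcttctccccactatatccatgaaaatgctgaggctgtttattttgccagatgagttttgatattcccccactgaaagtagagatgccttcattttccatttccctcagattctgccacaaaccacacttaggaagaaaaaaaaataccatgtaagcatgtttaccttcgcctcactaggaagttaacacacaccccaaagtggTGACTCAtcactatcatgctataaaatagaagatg
Mmp14: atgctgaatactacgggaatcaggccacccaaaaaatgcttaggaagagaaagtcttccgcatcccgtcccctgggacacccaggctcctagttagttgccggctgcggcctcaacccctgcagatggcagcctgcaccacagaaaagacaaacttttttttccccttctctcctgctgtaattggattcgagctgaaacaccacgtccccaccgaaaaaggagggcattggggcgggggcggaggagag
Adam10: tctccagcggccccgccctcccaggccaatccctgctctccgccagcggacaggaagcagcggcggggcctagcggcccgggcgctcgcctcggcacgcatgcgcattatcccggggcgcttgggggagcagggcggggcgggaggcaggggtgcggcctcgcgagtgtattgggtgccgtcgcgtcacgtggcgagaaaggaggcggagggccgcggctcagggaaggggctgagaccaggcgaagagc
Adam15: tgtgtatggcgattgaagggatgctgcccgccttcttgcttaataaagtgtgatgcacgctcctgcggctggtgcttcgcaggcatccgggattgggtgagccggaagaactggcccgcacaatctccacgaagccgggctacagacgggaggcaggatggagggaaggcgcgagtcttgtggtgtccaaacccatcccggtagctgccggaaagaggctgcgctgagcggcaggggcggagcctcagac
The windows were searched on both strands for the AP-1 motif TGANTCA, the NF-κB motif (GGGA, any base, then TTTCC) and the PU.1 motif GAGGAAGT, which do not overlap in any member's window. The capitals in the Mmp13 line mark an AP-1 match, TGACTCA, that begins 35 bases before the start. The other 3 lines held none of the motifs. RefSeq gave 11 such windows for 8 of the 10 members (none for Adam9 and Mmp9). An AP-1 match stood in 1 window each of Adam19, Mmp12 and Mmp13, a PU.1 match in 1 window of Mmp12, and an NF-κB match in 0 of the 11 windows. Of all 32851 windows of this length in the table, 6.75% held the AP-1 motif, 0.356% the NF-κB motif and 2.44% the PU.1 motif. A match describes these letters and does not show that a factor binds there.

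Levels are given as log2 intensities after normalization, for replicates 1 and 2 in that order. A difference of 1 on this scale is a 2-fold change, and levels of different genes are not compared, since probes differ in their response. On each array, 45.1% to 51.3% of the gene spots in Cy3 and 43.8% to 48% in Cy5 were well above background. All 10 members were well above background in all 16 array channels with the probe used, and 0 of their 21 spots was saturated in any channel. Furin, the targeted gene, had log2 KO/WT ratios from -0.85 to 0.33 over the 8 arrays, with a median of -0.57. It was not lower in the KO at 4 h, when its ratios were 0 and 0.33. On average over the times it fell by 0.44 in the KO (SE 0.06, adjusted p = 0.022), a call that was lost without 7 of the 8 arrays (adjusted p up to 0.0916) and with the processed signals of the scanner software (-0.48, adjusted p = 0.13). The study itself reports Furin mRNA as nearly absent in macrophages of these mice, a larger loss than the one on these arrays. Whether the Furin probe lies in the deleted part of the gene is not given in the sources used here. With the replicate number as a block, Furin was also lower in KO in unstimulated cells (-0.72, adjusted p = 0.0123), after 1 h (-0.56, adjusted p = 0.0478) and after 24 h (-0.64, adjusted p = 0.0227). The macrophage markers were present (all 8 measured were well above background in at least 1 channel), and so were markers of B cells (5 of 5), mast cells (6 of 6) and T and NK cells (5 of 7). Some markers of mesothelial cells and fibroblasts (9 of 11), dendritic cells (4 of 5), neutrophils (4 of 9) and eosinophils (2 of 4) were present too.

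**Figure D1:**
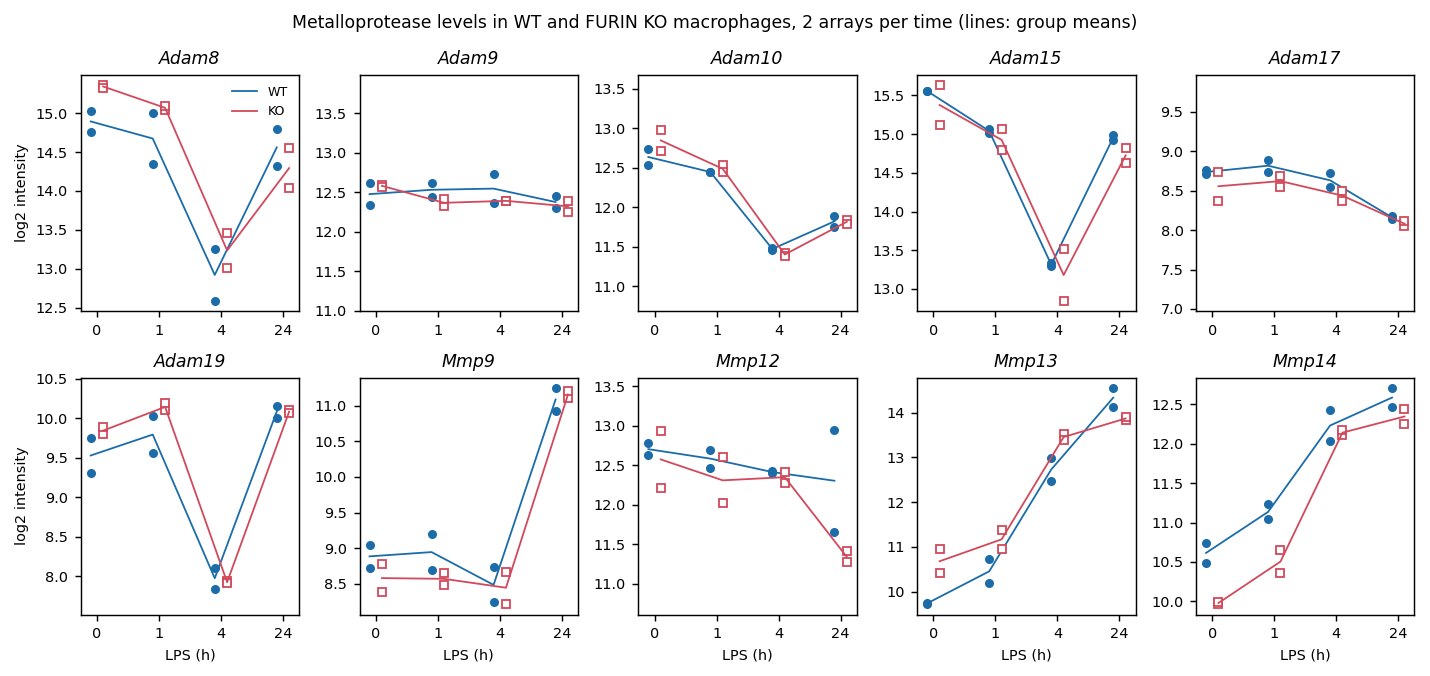
Log2 intensity (vertical axis) of the 10 metalloproteases against the hours of LPS (horizontal axis, evenly spaced) in WT (filled circles) and KO (open squares), a symbol per array and a line through the group means. Mmp13 and Mmp14 climbed over the time course, Mmp9 was high at 24 h only, and Adam8, Adam10, Adam15 and Adam19 were lowest at 4 h in both genotypes.

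Most of these genes changed over the LPS time course, and the time at which they changed differed between them. The labels give a single unstimulated group and no untreated culture at 1, 4 or 24 h. LPS and time in culture therefore cannot be told apart in the changes below. In WT at 4 h, the secreted collagenase Mmp13 was 7.93-fold higher and the membrane-type protease Mmp14 was 3.07-fold higher, while Adam15, Adam8, Adam19 and Adam10 were 4.74-fold, 3.93-fold, 2.95-fold and 2.25-fold lower. At 24 h Mmp13 stood 24.1-fold, Mmp9 4.57-fold and Mmp14 3.91-fold above the unstimulated level. Adam17 was 1.49-fold lower at 24 h. At 4 h, when these 4 ADAM genes were lower, 5 of 8 macrophage markers were lower and 1 higher in WT (median log2 change -0.88). Of 6 markers of large peritoneal macrophages, 4 were lower and 0 higher (-0.98), against 19.3% and 15.5% of all features. In KO, 5 macrophage markers were lower and 1 higher (-1.01), against 19.7% and 16.3% of all features. Of the large peritoneal macrophage markers, 3 were lower and 0 higher in KO (-1.07). At 24 h Adam10 and Adam17 were lower than in unstimulated cells, and Adam8, Adam15 and Adam19 were higher than at 4 h. Then 5 macrophage markers were lower and 2 higher in WT (-1.17), against 16.9% and 13.5% of all features. In KO 5 were lower and 1 higher (-1.09), against 15.9% and 12.8%. The mean log2 intensity of the macrophage list in WT was 14.79 to 15.09 unstimulated, 14.23 to 14.57 at 4 h and 14.25 to 14.31 at 24 h. In KO it was 14.9 in both unstimulated arrays, 14.21 to 14.38 at 4 h and 13.94 to 13.96 at 24 h. The part of these markers in the ADAM levels was not tested. Calls below are at an adjusted p under 0.05 in limma fits over 36927 features.

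At 1 h of LPS, 1 member was higher and 0 were lower in WT, against 3.37% and 5.18% of all features, and 3 of 10 members had an unadjusted p under 0.05, against 18.3% of all features. In KO the counts were also 1 higher and 0 lower, against 3.09% and 4.46% of all features. With the replicate number as a block, 3 members were called at 1 h in WT and 3 in KO, against 12.2% and 11.9% of all features. At 4 h, 2 members were higher and 4 lower in WT, against 15.5% and 19.3% of all features, and 2 were higher and 4 lower in KO, against 16.3% and 19.7%. At 24 h, 4 members were higher and 3 lower in WT, against 13.5% and 16.9%, and 3 were higher and 5 lower in KO, against 12.8% and 15.9%. The median change of the 10 members in WT was 0.06 after 1 h, -0.34 after 4 h and -0.22 after 24 h on the log2 scale, beside -0.02, 0 and -0.01 over all features. In KO the members' medians were -0.11, -0.21 and -0.36, beside -0.02, 0 and -0.01.

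**Figure D2:**
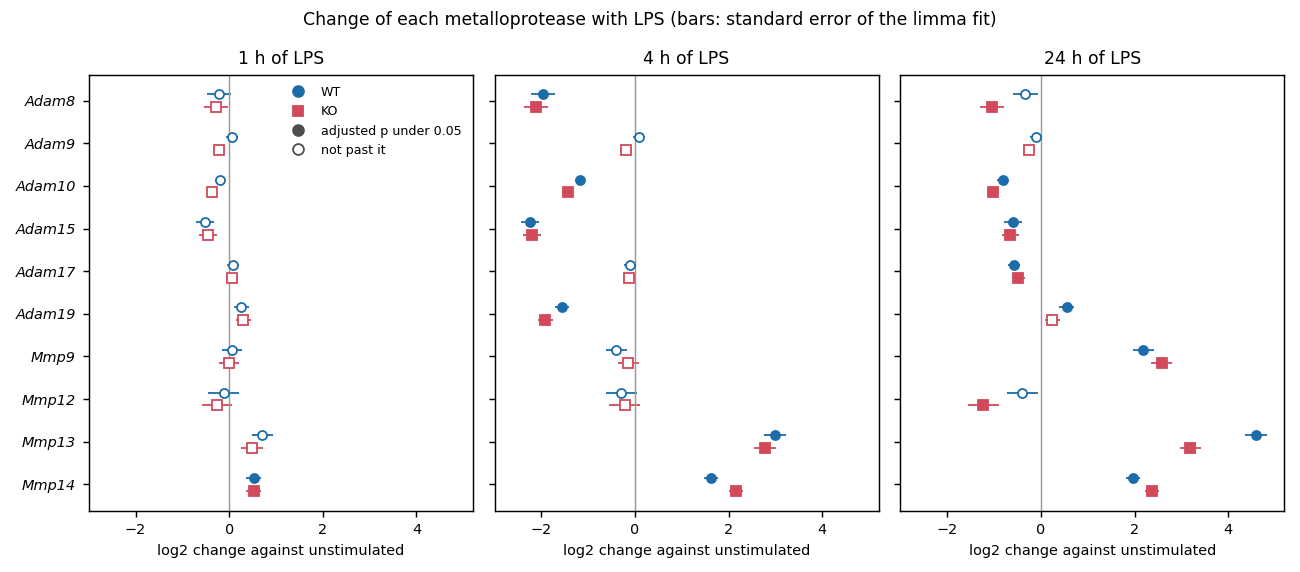
Log2 change against unstimulated cells (horizontal axis) of each member at 1, 4 and 24 h of LPS in WT (circles) and KO (squares), with bars for the standard error of the limma fit and filled symbols for an adjusted p under 0.05. At 4 h Mmp13 and Mmp14 lie to the right and 4 ADAM genes to the left of 0 in both genotypes, and at 24 h Mmp9 joins the genes on the right.

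Adam10 and Adam17 encode the main sheddases of the cell surface. The WT levels of Adam10 were 12.53 and 12.74 unstimulated, 12.45 and 12.44 after 1 h of LPS, 11.46 and 11.48 after 4 h, and 11.75 and 11.89 after 24 h. The KO levels were 12.98 and 12.71, 12.53 and 12.44, 11.42 and 11.38, and 11.84 and 11.79 at the same times. Both arrays of both genotypes were thus lower at 4 and 24 h than any unstimulated array. Adam10 fell by 1.17 at 4 h in WT (SE 0.11, adjusted p = 1.1e-06) and by 1.44 in KO (SE 0.11, adjusted p = 1.41e-07). At 24 h it was still 0.82 lower in WT (log2 change -0.82, adjusted p = 4.84e-05) and 1.03 lower in KO (log2 change -1.03, adjusted p = 6.39e-06). At 1 h the log2 change in KO was -0.36, with an adjusted p of 0.0713 that became 0.0262 with the replicate number as a block, 0.0297 without the unstimulated replicate 2 and 0.0289 with the processed signals of the scanner software.

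Adam17 moved later and less. Its WT levels were 8.71 and 8.76 unstimulated, 8.74 and 8.89 after 1 h of LPS, 8.54 and 8.72 after 4 h, and 8.14 and 8.18 after 24 h. In KO they were 8.74 and 8.37, 8.69 and 8.55, 8.5 and 8.37, and 8.05 and 8.11. The 24 h arrays were the lowest in both genotypes and did not overlap with the unstimulated arrays. Adam17 fell by 0.57 at 24 h in WT (SE 0.13, adjusted p = 0.00265) and by 0.48 in KO (SE 0.13, adjusted p = 0.00982). The KO call was lost without the unstimulated replicate 1 (log2 change -0.29, adjusted p = 0.172) and without the 24 h replicate 1 (log2 change -0.45, adjusted p = 0.0811). At 1 and 4 h Adam17 did not pass the test in either genotype (log2 changes from -0.12 to 0.08). A second, dimmer Adam17 probe, with a mean log2 intensity of 7.83 against 8.5, gave -0.42 in WT and -0.5 in KO at 24 h, but also -0.47 in KO at 4 h, where the brighter probe gave -0.12.

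Adam8, Adam15 and Adam19 encode membrane-anchored ADAMs, of which ADAM8 is found on myeloid cells. These 3 genes were lower at 4 h than at the other times, and higher again at 24 h than at 4 h, in both genotypes. Adam15 in WT went from 15.56 and 15.55 to 15.01 and 15.07 after 1 h of LPS, to 13.33 and 13.3 after 4 h, and to 14.92 and 14.99 after 24 h. In KO it went from 15.63 and 15.12 to 15.06 and 14.79, to 13.51 and 12.85, and to 14.82 and 14.63. The 4 h arrays lay below all other arrays in both genotypes. At 4 h it fell by 2.24 in WT (SE 0.19, adjusted p = 4.49e-07) and by 2.2 in KO (SE 0.19, adjusted p = 5.49e-07).

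At 24 h Adam15 remained 1.52-fold lower in WT (adjusted p = 0.0287) and 1.57-fold lower in KO (adjusted p = 0.0196). The WT call was lost without either of the unstimulated arrays (replicate 1, adjusted p = 0.0735, and replicate 2, 0.0677) or of the 24 h arrays (replicate 1, 0.141, and replicate 2, 0.096). The KO call was lost without the unstimulated replicate 1 (log2 change -0.4, adjusted p = 0.271), the 24 h replicate 1 (adjusted p = 0.0543) or the 24 h replicate 2 (adjusted p = 0.153), and with the KO channels alone (adjusted p = 0.0521). At 1 h the log2 change was -0.52 in WT (adjusted p = 0.143) and -0.45 in KO (adjusted p = 0.226). With the replicate number as a block these adjusted p-values became 0.00652 and 0.0164, and with the WT channels alone the WT value became 0.0112.

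Adam8 in WT had levels of 15.03 and 14.76 unstimulated, 15 and 14.35 after 1 h of LPS, 13.25 and 12.59 after 4 h, and 14.8 and 14.32 after 24 h. In KO they were 15.36 and 15.33, 15.04 and 15.1, 13.46 and 13.01, and 14.04 and 14.55. The fall at 4 h was 1.97 in WT (log2 change -1.97, SE 0.26, adjusted p = 2.92e-05) and 2.11 in KO (log2 change -2.11, SE 0.26, adjusted p = 1.56e-05). At 24 h the log2 change was -0.33 in WT (adjusted p = 0.424) and -1.05 in KO (adjusted p = 0.00663). The 24 h KO call was lost without the 24 h replicate 1 (log2 change -0.8, adjusted p = 0.0767) and with the processed signals of the scanner software (adjusted p = 0.0526). The difference between these responses, -0.72 (SE 0.32), did not pass the test (adjusted p = 1, unadjusted p = 0.0551).

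Adam19 had WT levels of 9.31 and 9.75 unstimulated, 9.56 and 10.03 after 1 h of LPS, 7.84 and 8.11 after 4 h, and 10.16 and 10.01 after 24 h. The KO levels were 9.8 and 9.89, 10.1 and 10.19, 7.94 and 7.91, and 10.1 and 10.07. The 4 h arrays were again set apart from all others. Adam19 fell by 1.56 at 4 h in WT (SE 0.16, adjusted p = 2.6e-06) and by 1.92 in KO (SE 0.16, adjusted p = 3.43e-07). At 24 h it was 1.47-fold above the unstimulated level in WT (adjusted p = 0.0166), while the KO change was 0.24 on the log2 scale (adjusted p = 0.336). The WT call at 24 h was lost without the unstimulated replicate 1 (log2 change 0.33, adjusted p = 0.238), without the 24 h replicate 1 (0.48, adjusted p = 0.136), with the WT channels alone (adjusted p = 0.0665) and with the processed signals of the scanner software (adjusted p = 0.0726).

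Adam9, another membrane-anchored ADAM, did not pass the test at any time in either genotype. Its 16 levels lay between 12.25 and 12.73, and its group means spanned 0.25 on the log2 scale, the smallest span of the 10 members. The WT changes were 0.06 after 1 h, 0.08 after 4 h and -0.1 after 24 h, and those in KO were -0.22, -0.19 and -0.25, each with an SE of 0.13.

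Among the MMPs, Mmp14 encodes MT1-MMP, a membrane-type protease that cuts collagen and activates proMMP2 and proMMP13. Its WT levels were 10.74 and 10.49 unstimulated, 11.23 and 11.04 after 1 h of LPS, 12.43 and 12.03 after 4 h, and 12.7 and 12.47 after 24 h. The KO levels were 9.97 and 9.99, 10.65 and 10.36, 12.11 and 12.17, and 12.44 and 12.25. Every LPS array lay above the unstimulated arrays of its genotype. Mmp14 was the single member called at 1 h, with a log2 change of 0.52 in WT (SE 0.15, adjusted p = 0.0447) and of 0.52 in KO (SE 0.15, adjusted p = 0.0482). Both calls at 1 h stand close to the threshold. In WT the adjusted p was 0.0862 and 0.336 without the unstimulated replicates 1 and 2, 0.244 and 0.0744 without the 1 h replicates 1 and 2, and 0.0614 without either 24 h replicate. In KO the same values were 0.219 and 0.149, 0.361 and 0.0674, and 0.0659. At 4 h Mmp14 rose by 1.62 in WT (SE 0.15, adjusted p = 8.15e-07) and by 2.15 in KO (SE 0.15, adjusted p = 5.06e-08), and at 24 h by 1.97 (adjusted p = 1.97e-07) and 2.37 (adjusted p = 3.57e-08).

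Mmp13 encodes the main interstitial collagenase of rodents. In WT it went from 9.75 and 9.73 to 10.72 and 10.19 after 1 h of LPS, to 12.98 and 12.48 after 4 h, and to 14.13 and 14.54 after 24 h. In KO it went from 10.41 and 10.95 to 10.96 and 11.38, to 13.53 and 13.38, and to 13.83 and 13.91. The WT arrays thus rose from each time to the next without overlap, and its group means spanned 4.59 on the log2 scale, the widest span of the 10 members. The rise at 4 h was 2.99 in WT (SE 0.23, adjusted p = 1.5e-07) and 2.77 in KO (SE 0.23, adjusted p = 3.18e-07). At 24 h it was 4.59 in WT (SE 0.23, adjusted p = 4.02e-09) and 3.19 in KO (SE 0.23, adjusted p = 1.42e-07), or 24.1-fold and 9.13-fold. At 1 h the WT change of 0.71 did not pass the test (adjusted p = 0.0819). It passed with the replicate block (adjusted p = 0.0392) and without the 1 h replicate 2 (log2 change 0.98, adjusted p = 0.0377).

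Mmp9 encodes gelatinase B, an enzyme that neutrophils and macrophages release. Its WT levels were 8.72 and 9.05 unstimulated, 8.69 and 9.2 after 1 h of LPS, 8.24 and 8.73 after 4 h, and 10.93 and 11.24 after 24 h. In KO they were 8.38 and 8.78, 8.65 and 8.49, 8.67 and 8.22, and 11.1 and 11.21. The first 3 times overlapped, and the 24 h arrays stood apart. The rise at 24 h was 2.19 in WT (SE 0.22, adjusted p = 3.52e-06) and 2.58 in KO (SE 0.22, adjusted p = 7.91e-07), or 4.57-fold and 6-fold.

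Markers of neutrophils were examined beside Mmp9. Of 9 measured neutrophil markers, 2 were higher at 24 h in WT, S100a8 (log2 change 3.77, adjusted p = 2.09e-06) and Camp (1.82, adjusted p = 6.74e-07), and 1 was lower, Elane (-0.87, adjusted p = 6.94e-05). The markers S100a9, Ngp, Retnlg, Mpo and Cxcr2 were not well above background in any channel. The mean log2 intensity of the list was 7.46 to 7.48 in the unstimulated WT cells and 7.96 to 8.11 at 24 h, and in KO 7.35 to 7.46 and 7.93 to 7.99. The part of neutrophils in the Mmp9 level was not tested.

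Mmp12 encodes macrophage elastase. The WT levels were 12.63 and 12.78 unstimulated, 12.7 and 12.47 after 1 h of LPS, 12.4 and 12.43 after 4 h, and 11.66 and 12.95 after 24 h, so that the 24 h replicates lay on either side of all other WT values. In KO they were 12.21 and 12.94, 12.02 and 12.6, 12.28 and 12.42, and 11.27 and 11.41. Both KO arrays at 24 h were below the earlier KO arrays. Mmp12 fell by 1.23 at 24 h in KO (SE 0.33, adjusted p = 0.01), a call that was lost without the unstimulated replicate 2 (log2 change -0.87, adjusted p = 0.146). In WT the change at 24 h was -0.4 (adjusted p = 0.447). A second, dimmer Mmp12 probe gave -1.38 in WT and -1.11 in KO at 24 h, but was not well above background on the 24 h arrays, so its 24 h level is only an upper bound. With the mean of both probes, Mmp12 was called lower at 24 h in WT as well (log2 change -0.89, adjusted p = 0.00446), beside -1.17 in KO (adjusted p = 0.000646), and the WT change from 4 to 24 h was -0.61 (adjusted p = 0.0398). The difference between the KO and WT responses at 24 h was -0.84 (SE 0.39) and did not pass the test (adjusted p = 1, unadjusted p = 0.0601).

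Between successive times, 2 members were higher and 4 lower at 4 h than at 1 h in WT, against 14% and 15.6% of all features, and 2 were higher and 4 lower in KO, against 15% and 16.8%. In both genotypes the higher members were Mmp13 and Mmp14, and the lower ones Adam8, Adam10, Adam15 and Adam19. From 4 to 24 h, 6 members were higher and 1 lower in WT, against 15.2% and 14.6% of all features, and 5 were higher and 2 lower in KO, against 15.7% and 15.1%. Adam19 regained 2.11 in WT (adjusted p = 2.84e-07) and 2.16 in KO (adjusted p = 2.4e-07), Adam15 1.64 (adjusted p = 1.58e-05) and 1.55 (adjusted p = 2.5e-05), and Adam8 1.64 (adjusted p = 0.000224) and 1.06 (adjusted p = 0.00618) on the log2 scale. Without the 24 h replicate 2, the KO call of Adam8 was lost (log2 change 0.8, adjusted p = 0.0716). Mmp9 was 6.05-fold higher at 24 h than at 4 h in WT and 6.59-fold higher in KO.

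Mmp13 rose further from 4 to 24 h in WT (log2 change 1.6, adjusted p = 9.24e-05), and its KO change over the same span was 0.42 (adjusted p = 0.218). Adam10 was also higher at 24 h than at 4 h, by 0.35 in WT (adjusted p = 0.0273) and 0.42 in KO (adjusted p = 0.0096), and Adam17 was lower, with log2 changes of -0.47 in WT (adjusted p = 0.0107) and -0.35 in KO (adjusted p = 0.0469). Several of these calls, close to the threshold, were lost when an array was left out, while the sizes stayed similar. The WT call of Adam10 was lost without any of the 4 h or 24 h arrays (log2 changes from 0.28 to 0.42, adjusted p from 0.0522 to 0.213) and the KO call without the 4 h replicate 2 (0.4, adjusted p = 0.0609) or the 24 h replicate 1 (0.39, adjusted p = 0.0647). The WT call of Adam17 was lost without the 4 h replicate 2 (-0.38, adjusted p = 0.0991), the 24 h replicate 1 (-0.44, adjusted p = 0.0793) or the 24 h replicate 2 (-0.49, adjusted p = 0.0532). The KO call of Adam17 was lost without any of the 1, 4 or 24 h arrays (log2 changes from -0.42 to -0.29, adjusted p from 0.0599 to 0.219), as well as with the mean of both Adam17 probes (log2 change -0.19, adjusted p = 0.429). Mmp12 was lower at 24 h than at 4 h in KO (log2 change -1.01, adjusted p = 0.0297), a call lost with the processed signals of the scanner software (-1.03, adjusted p = 0.109). Without the 4 h replicate 1 or 2 that call was lost (-1.08, adjusted p = 0.0975, and -0.94, adjusted p = 0.144).

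The comparison of FURIN KO with WT asked whether these protease genes were expressed differently in cells of mice with a myeloid deletion of Furin. The libraries labelled KO had the Furin RNA ratios given above, which were not below 0 at 4 h. Within single times, 0 of 10 members passed the limma test. Over all features the called share was 0% in unstimulated cells and 0% in cells given LPS for 1 h, and it was 0.00812% for 4 h of LPS and 0.0244% for 24 h. The members with an unadjusted p under 0.05 numbered 3 in unstimulated cells, against 5.75% of all features, and 3 at 1 h, against 5.46%. They numbered 1 at 4 h, against 4.31%, and 1 at 24 h, against 3.42%. With the t-test of the study's methods the numbers were 1, 0, 0 and 0, against 4.62%, 4.75%, 3.07% and 4.1% of all features, and 0 at each time after Benjamini-Hochberg adjustment, when 0 of all features passed. With the replicate number as a block, the members called in limma were 2 in unstimulated cells and 1 at 1 h, against 1.06% and 0.577% of all features, and 0 at both later times, against 0.569% and 0.585%. Averaged over the 4 times, 1 of 10 members was called, against 0.563% of all features, and 2 with the block, against 6.01%.

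**Figure D3:**
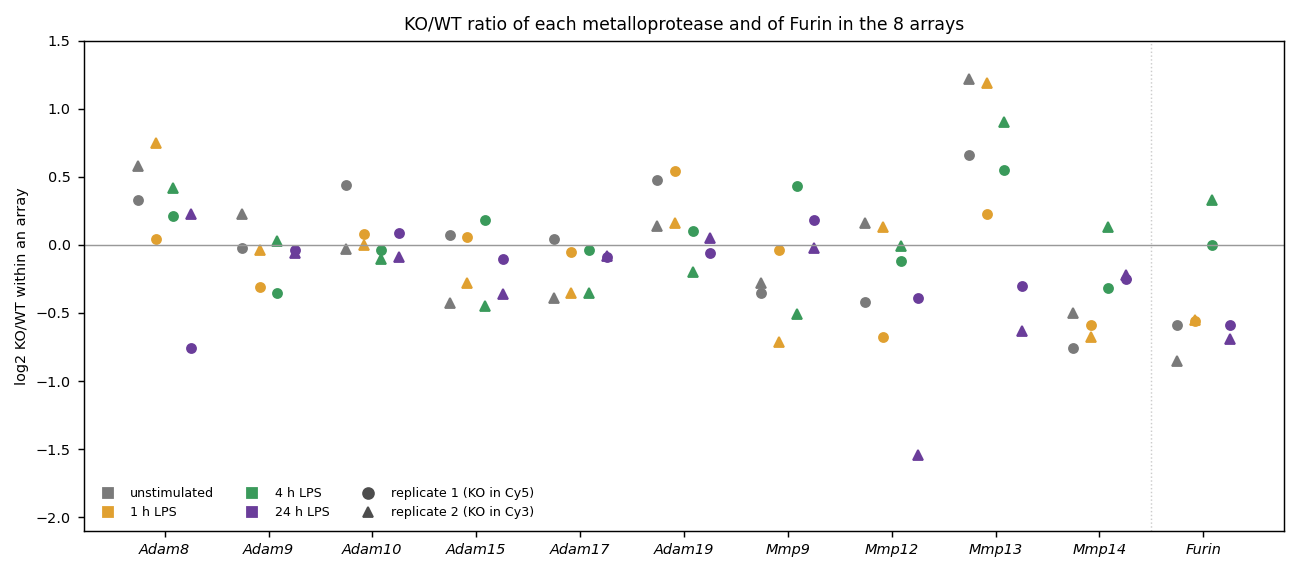
Log2 KO/WT ratio within each of the 8 arrays (vertical axis) for the 10 metalloproteases and Furin, by time of LPS (colours) and replicate (circles, KO in Cy5, and triangles, KO in Cy3). Mmp14 lies below 0 in 7 of 8 arrays, and Mmp13 lies above 0 in the 6 arrays up to 4 h and below 0 in both arrays at 24 h.

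Mmp14 was the member called on average over the times, at 1.32-fold less in KO (log2 KO/WT -0.4, SE 0.06, adjusted p = 0.0374). Its log2 ratios in replicates 1 and 2 were -0.76 and -0.5 unstimulated, -0.59 and -0.68 after 1 h of LPS, -0.32 and 0.13 after 4 h, and -0.25 and -0.22 after 24 h. It was thus lower in KO in 7 of 8 arrays, with the exception at 4 h. The call was lost when any of the 8 arrays was left out. The adjusted p was then 0.156 and 0.0778 without the unstimulated replicates 1 and 2, 0.101 and 0.106 without those after 1 h, 0.0902 and 0.0766 without those after 4 h and 0.0826 and 0.131 without those after 24 h, at a log2 ratio between -0.45 and -0.34. In the same average over the times, 2 of 8 macrophage markers were lower in KO, Lyz2 (log2 KO/WT -1.18, adjusted p = 0.000485), whose locus carries the Cre, and Csf1r (-0.41, adjusted p = 0.0183), and 1 of 6 markers of large peritoneal macrophages was higher, Icam2 (0.34, adjusted p = 0.0265). The part of these differences in the Mmp14 ratio was not tested. With the replicate block, Mmp14 was lower in KO in unstimulated cells (log2 KO/WT -0.63, adjusted p = 0.0187, against 0.203 without the block) and at 1 h (-0.63, adjusted p = 0.0286, against 0.436).

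Mmp13 had log2 KO/WT ratios of 0.66 and 1.22 unstimulated, 0.23 and 1.19 after 1 h of LPS, 0.55 and 0.9 after 4 h, and -0.3 and -0.63 after 24 h. All 6 arrays up to 4 h were on the KO side and both arrays at 24 h on the WT side. In unstimulated cells the mean of 0.94 (SE 0.22) had an unadjusted p of 0.00244 and an adjusted p of 0.324, which became 0.0255 with the replicate block. The average over the times, 0.48 (SE 0.11), had an adjusted p of 0.119 and of 0.00703 with the block.

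The other 8 members did not pass in any KO/WT comparison, with or without the block. Adam8 was higher in KO in 7 of 8 arrays, with the exception of the 24 h replicate 1 (-0.76), and averaged 0.23 (SE 0.11, adjusted p = 0.57). Adam17 ratios ran from -0.39 to 0.04, with 7 of 8 arrays below 0 and an average of -0.16 (SE 0.07, unadjusted p = 0.0368, adjusted p = 0.415). The second Adam17 probe had mean log2 ratios of -0.04 in unstimulated cells, -0.37 at 1 h, -0.49 at 4 h and -0.11 at 24 h, where the probe used had -0.18, -0.2, -0.2 and -0.08. Adam19 was higher in KO in both unstimulated arrays (0.48 and 0.14) and in both arrays at 1 h (0.54 and 0.16). Its average of 0.15 (SE 0.07) had an adjusted p of 0.469. Mmp12 showed its lowest mean ratio at 24 h, -0.96 (SE 0.27, unadjusted p = 0.00686, adjusted p = 0.787 in limma), with -0.39 and -1.54 in replicates 1 and 2. In replicate 1 its ratio was lower unstimulated (-0.42) and at 1 h (-0.68) than at 24 h. The dimmer Mmp12 probe was not well above background at 24 h, so its ratio of 0.19 there cannot show a KO difference. The mean of both probes, which includes it, gave -0.39 (adjusted p = 1). The averages of Adam9 (-0.07), Adam10 (0.04), Adam15 (-0.16) and Mmp9 (-0.16) had unadjusted p-values from 0.0968 to 0.481.

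The response to LPS was also compared between the genotypes, as the KO/WT ratio at a time minus that of unstimulated cells. Of the 10 members, 0 passed the limma test at 1, 4 or 24 h, against 0%, 0% and 0% of all features, and the unadjusted p was under 0.05 for 0, 1 and 2 members, against 1.39%, 2.9% and 3.33% of all features. With the replicate block 1 member passed, Mmp13 at 24 h, against 0.211% of all features, and 0 passed at 1 and 4 h, against 0% and 0.0352%. Its response at 24 h was 1.40 lower in KO on the log2 scale (-1.4, SE 0.31, adjusted p = 0.685, and 0.0446 with the block), with -0.95 in replicate 1 and -1.85 in replicate 2. Mmp14 went the other way, with a difference of 0.54 at 4 h (SE 0.17, unadjusted p = 0.0133, adjusted p = 1) and 0.4 at 24 h (SE 0.17, unadjusted p = 0.048, adjusted p = 1).

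The other genes of the protease network were read from lists that also include the inhibitors, partners and substrates of these enzymes. Beside their counts in WT stand the shares of all features, 3.37% higher and 5.18% lower at 1 h. These were 15.5% and 19.3% at 4 h, and 13.5% and 16.9% at 24 h. Of 9 other ADAM genes, 0 were called at 1 or 4 h in WT and 1 at 24 h. This was Adam11, an ADAM without a protease site, which fell by 0.56 (adjusted p = 0.00568), a call lost without the unstimulated replicate 1 (-0.39, adjusted p = 0.0928) and with the mean of its probes (-0.31, adjusted p = 0.0549). Of 18 other MMP genes measured, 4 were higher and 2 lower at 4 h in WT, and 4 were higher and 2 lower at 24 h. The stromelysin Mmp3 was not well above background in unstimulated WT cells and was at least 4.71-fold higher at 4 h (adjusted p = 0.000216) and at least 19.9-fold higher at 24 h (adjusted p = 7.69e-07). Its fitted log2 change at 24 h, 4.43, was 5.07 and 3.8 without the 24 h replicates 1 and 2. The gelatinase Mmp2 rose by 1.93 at 4 h (adjusted p = 2.4e-07) and stood 0.77 above the unstimulated level at 24 h (adjusted p = 0.00145). The neutrophil collagenase Mmp8 fell by 1.65 at 24 h (adjusted p = 1.58e-05), and Mmp19 fell by 0.83 at 4 h (adjusted p = 9.29e-06).

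Mmp2, Mmp3 and Mmp13 are also made by fibroblasts and mesothelial cells, and markers of these cells were examined beside them. Of 11 such markers, 2 were higher at 4 h in WT, Dcn (log2 change 0.8, adjusted p = 0.00209) and Col1a2 (0.71, adjusted p = 0.0064), and 0 in KO, where Col3a1 was lower (-0.47, adjusted p = 0.0203). At 24 h 2 were higher in WT, Dcn (log2 change 2.85, adjusted p = 2.72e-08) and Lum (at least 2.44-fold, adjusted p = 0.000671), and 3 in KO. Lrrn4 and Pdgfra were not well above background in any channel. The mean log2 intensity of the list was 6.66 to 6.68 in unstimulated WT cells, 6.83 to 6.98 at 4 h and 7.11 to 7.13 at 24 h, and in KO 6.71 to 6.87, 6.63 to 6.83 and 7.22 to 7.3. At 24 h 5 of 6 markers of large peritoneal macrophages were lower in WT and 5 in KO, and the mean of that list went from 11.62 to 12.08 down to 8.97 to 9.03 in WT and from 12.03 to 12.1 down to 9.2 to 9.21 in KO. Of 6 mast cell markers, 5 were lower at 24 h in WT and 5 in KO. The part of these changes in the levels of the metalloproteases was not tested.

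**Figure D4:**
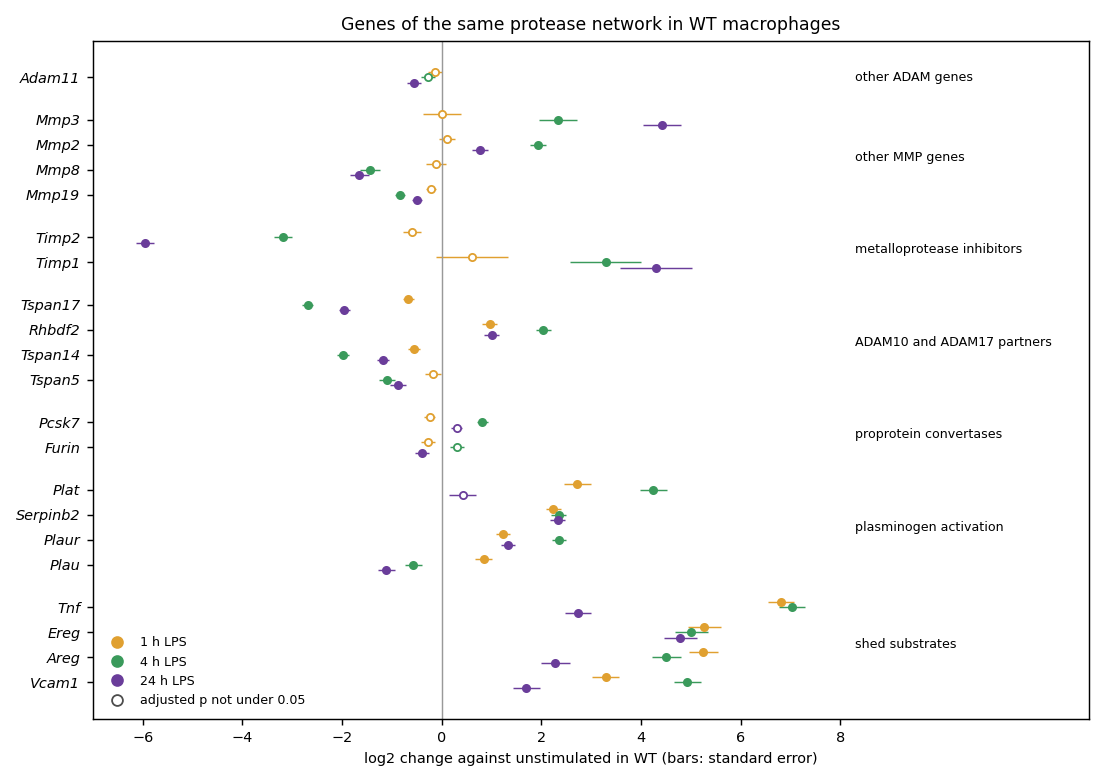
Log2 change against unstimulated cells in WT (horizontal axis) at 1, 4 and 24 h of LPS for 21 genes of the protease network, grouped by list, with bars for the standard error and open symbols where the adjusted p was not under 0.05. Timp2 lies furthest to the left at 24 h, and Timp1 and the shed ligands Tnf, Ereg and Areg lie to the right.

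Of the tissue inhibitors of metalloproteases, Timp1 rose and Timp2 fell, and the others did not pass the test. Timp2, an inhibitor that also helps MT1-MMP to activate proMMP2, fell by 3.18 at 4 h (adjusted p = 7.61e-09) and by 5.95 at 24 h (adjusted p = 4.16e-11) in WT, the latter a 62-fold fall, and by 5.91 at 24 h in KO (adjusted p = 5.64e-11). Timp1 was 9.79-fold higher at 4 h (adjusted p = 0.00217) and 19.7-fold higher at 24 h (adjusted p = 0.00033) in WT. Its unstimulated WT levels lay far apart, at 9.83 and 7.92, and so did those at 24 h, at 14.27 and 12.08. Without the unstimulated replicate 1 the Timp1 change was 19-fold at 4 h and 38.1-fold at 24 h, and without replicate 2 it was 5.06-fold at 4 h, where the call was lost (adjusted p = 0.0514), and 10.1-fold at 24 h. Without the 24 h replicates 1 and 2 the change at 24 h was 9.19-fold and 41.9-fold. Of the 6 inhibitors measured, 1 was higher and 1 lower at 4 h and again at 24 h in each genotype.

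Partners of ADAM10 and ADAM17 include the iRhoms, which carry ADAM17 to the cell surface, and the TspanC8 tetraspanins, which do so for ADAM10. Of 9 partners, 1 was higher and 3 lower at 1 h in WT, 3 were higher and 4 lower at 4 h, and 1 was higher and 5 lower at 24 h. Rhbdf2, which encodes iRhom2, was 4.12-fold higher at 4 h (adjusted p = 1.21e-07) and 2-fold higher at 24 h (adjusted p = 0.000166). The tetraspanin genes Tspan17, Tspan14 and Tspan5 fell by 2.69 (adjusted p = 2.59e-10), 1.99 (adjusted p = 1.33e-08) and 1.09 (adjusted p = 6.79e-05) at 4 h. Among 4 proprotein convertases, Pcsk7 was 1.76-fold higher at 4 h in WT (adjusted p = 5.45e-05). Furin itself was 2.29-fold higher at 4 h in KO (adjusted p = 6.67e-06), with levels of 12.02 and 11.97 against 10.97 and 10.63 in unstimulated cells. In WT its levels were 12.02 and 11.65 at 4 h against 11.56 and 11.48, a log2 change of 0.31 (adjusted p = 0.0971) that passed with the replicate block (adjusted p = 0.0368) and without the 4 h replicate 2 (0.5, adjusted p = 0.0221). It was 1.32-fold lower at 24 h in WT (adjusted p = 0.0389), a call lost without either unstimulated array (adjusted p = 0.134 and 0.0656), either 1 h array (0.0645) or either 24 h array (0.0742 and 0.202), and with the processed signals (0.0856), Aquantile normalization (0.0552) or the WT channels alone (0.0544).

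The plasminogen system feeds into the activation of MMPs. Of 5 of its genes, 4 were higher at 1 h in WT, 3 were higher and 1 lower at 4 h, and 2 were higher and 1 lower at 24 h. The tissue activator Plat, not well above background in unstimulated cells, was at least 5.85-fold higher at 1 h (adjusted p = 1.45e-05) and at least 16.7-fold higher at 4 h (adjusted p = 2.12e-08). The urokinase gene Plau was 1.79-fold higher at 1 h (adjusted p = 0.00624), a call lost without the unstimulated replicates 1 and 2 (0.0695 and 0.0528) or the 1 h replicate 1 (0.067) and with the processed signals of the scanner software (0.0754). It was 1.48-fold lower at 4 h (adjusted p = 0.0185), lost without the unstimulated replicates 1 and 2 (0.0803 and 0.0997) or the 4 h replicate 1 (0.23) and with the processed signals (0.0672), and fell by 1.11 at 24 h (adjusted p = 0.000177). In the same system, the urokinase receptor gene Plaur was 5.09-fold higher at 4 h (adjusted p = 1.74e-08). Serpinb2, which encodes an inhibitor of urokinase, was 4.74-fold higher at 1 h in WT (adjusted p = 4.41e-07), and its average over the times was 1.5-fold higher in KO (adjusted p = 0.0265). This average was carried by the unstimulated arrays, with log2 KO/WT ratios of 1.69 unstimulated, 0.23 at 1 h of LPS, 0.43 at 4 h and -0.01 at 24 h.

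Of 26 genes for proteins that ADAMs shed, 10 were higher and 2 lower at 1 h in WT, 16 were higher and 5 lower at 4 h, and 10 were higher and 8 lower at 24 h. Tnf, the substrate for which ADAM17 is named, was 112-fold higher at 1 h (adjusted p = 1.71e-09), 131-fold at 4 h (adjusted p = 1.69e-10) and 6.67-fold at 24 h (adjusted p = 2.03e-06) in WT, and 84.6-fold, 81.7-fold and 4.34-fold higher in KO. The EGF receptor ligands Areg and Ereg were not well above background in unstimulated WT cells and were at least 34.2-fold (adjusted p = 4.46e-08) and at least 31.6-fold (adjusted p = 1.9e-07) higher at 1 h. The adhesion molecule Vcam1 was 30.5-fold higher at 4 h (adjusted p = 5.85e-09). On average over the times, 2 of the 26 were higher and 2 lower in KO than in WT, against 0.563% of all features in either direction.

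Genes with a like pattern over the 8 group means were sought for Adam17 and for the 3 other members with the widest span, among about 6934 named genes whose own group means spanned at least 1 on the log2 scale. Nearest to Mmp9 were S100a8 (Pearson r = 0.997), Gins1 (0.996) and Stmn1 (0.994). Nearest to Mmp13 were Cyp26b1 (0.992), Ddx19a (0.991) and Hmgn5 (0.989), and nearest to Mmp14 were Slc9a3r1 (0.991), Irak3 (0.987) and F11r (0.984). For Adam17 they were Hsd3b1 (0.986), Ugt1a10 (0.985) and Csnk1e (0.983). These values describe 8 points that share arrays, and were picked as the highest of many.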

How the data were processed

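RNA of FURIN KO and WT macrophages was hybridized in 2 colours to 8 Agilent mouse arrays, all on the same slide and scan. The authors' scanner files (Agilent Feature Extraction 10.7.3, from the submitters' processing notes) hold deposited intensities in the form of median spot and background signals, processed signals and flags. A deposited table holds the authors' log2 ratios, with their normalization by loess and quantiles in limma, and served as an alternative. Direction came from the dyes in the labels, and time from the titles, since a protocol label gives 4 h for all samples. Median signals were background-corrected (normexp, offset 50), normalized by loess and quantiles, averaged over the spots of a probe, and reduced to the brightest probe of each gene (55681 gene probes, 27509 of them named through RefSeq accessions, which gave 37018 genes and transcripts). Features whose log2 intensity averaged 6 or more and that had values on all arrays were tested (36927). Flagged outlier spots were left out.

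KO/WT ratios were fitted per time in limma 3.58.1, and LPS changes in its separate-channel fit (within-spot correlation 0.0865), with Benjamini-Hochberg adjustment over all features and a threshold of 0.05. Members and lists were chosen with earlier results of these data known. All members are named. Of each related list, up to 4 genes with the largest called change in WT are named, and 1 listed gene is not reported here. Replicate differences correlated between times (r from 0.475 to 0.679 for the ratio, 0.339 to 0.565 for WT and 0.214 to 0.336 for KO). The replicate number also marks the dye orientation, so these values cannot tell a pairing of the samples from a dye difference. The main fits had no replicate term, and the number served as a block in an alternative fit. Patterns were compared over group means. The fits were tested on simulated data. The number of arrays limits the precision.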

Additional observations from a re-analysis of the deposited data

Results flagged for a closer look

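The KO/WT ratio of Mmp13 was above 0 on every array up to 4 h and below 0 on both arrays at 24 h. The difference between 24 h and unstimulated cells was -1.4 on the log2 scale (adjusted p = 0.685 in limma, and 0.0446 with the replicate block). The differences between 24 h and 1 h (-1.17) and between 24 h and 4 h (-1.19) were not tested. The KO/WT ratio of Furin, below 0 on the other 6 arrays, was 0 and 0.33 at 4 h. The difference between 4 h and unstimulated cells was 0.88 (SE 0.16, adjusted p = 0.815 in limma). The differences between 4 h and 1 h (0.72) and between 24 h and 4 h (-0.8) were not tested.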

How the results depend on the processing

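Of 67 member results called with or without the replicate block, 0 changed sign under any alternative. The processing of dim probes changed none of the calls, no background correction and Aquantile normalization ended 3 each, and the processed signals of the scanner software ended 6 and added 1. The mean of all probes ended 1 and, beyond these, called Mmp12 lower in WT at 24 h against unstimulated cells and against 4 h (8 members each, against 7). The replicate block moved the number of members called from 1 to 3 at 1 h of LPS in WT and in KO, from 0 to 2 in KO against WT unstimulated, from 0 to 1 at 1 h, from 1 to 2 on average over the times and from 0 to 1 for a different response at 24 h. Over all features it moved the calls from 3158 to 4499, 2787 to 4378, 0 to 393, 0 to 213, 208 to 2219 and 0 to 78 in the same comparisons. It also added Mmp9 (4 h against 1 h) and Mmp14 (24 h against 4 h) in WT and changed no other call of a member. The member called at 1 h was lost (0 members) in WT with the processed signals and without background correction, and in KO without background correction, with Aquantile and with a within-spot correlation of 0. Mmp14 was also lost at 1 h in KO with the processed signals (adjusted p = 0.118), where Adam10 was gained, and in WT with the channels of its genotype alone (adjusted p = 0.11), where Adam15 was gained. The member called on average in KO against WT was lost (0) with the processed signals, Aquantile and the authors' log2 ratios.

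The t-test of the methods, after adjustment, called 0 members after 1 h, 1 after 4 h and 0 after 24 h in WT, 0 for 4 h against 1 h and 0 for 24 h against 4 h. In KO it called 0, 2, 0, 1 and 0. Of all features it called 0%, 4.97%, 0.0325%, 0.0379% and 0.0189% in WT and 0%, 2.13%, 1.66%, 0.991% and 0.00271% in KO. Without adjustment the numbers were 1, 6, 6, 5 and 6 in WT, against 13.2%, 31.1%, 27.9%, 25.2% and 26.2% of all features, and 3, 7, 5, 6 and 7 in KO, against 13.7%, 28.4%, 27%, 26.7% and 25.9%.

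When each replicate was left out in turn, the members called ranged from 0 to 1 at 1 h, 6 to 6 at 4 h, 5 to 7 at 24 h, 6 to 7 for 4 h against 1 h and 5 to 7 for 24 h against 4 h in WT. In KO they ranged from 0 to 1, 6 to 6, 5 to 8, 6 to 6 and 4 to 7. KO against WT and the response differences gave 0 to 0 throughout, the average over the times included. A time left with 1 array was assumed to vary like the others. The shares of all features called in these fits are not given, so the ranges do not set the members apart from other genes. The slide as a block was not run, since all arrays share a slide.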
